A study of Mus musculus with 22 samples.

Results

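The genes described here are the Wnt ligands, their Frizzled and Lrp receptors and the intracellular genes of the Wnt pathway in mouse cardiac fibroblast cultures. They were chosen by name from the 34378 gene names of the authors' deposited expression table: every gene called Wnt or Frizzled with a number, plus 14 named co-receptors, signal transducers, transcription factors and feedback inhibitors. The rule found 42 genes and used no measured value, though it was set with earlier results of these data known. They comprise 18 ligands, 10 Frizzled receptors, 2 co-receptors, 3 Dishevelled genes, 3 genes of the destruction complex, Ctnnb1, 4 TCF/LEF factors and Nkd1. The study followed cardiac fibroblasts (CF) of strain CD1 while a retrovirus carried Mef2c, Gata4 and Tbx5 on a single polycistronic transcript (MGT) into them, a treatment used to turn fibroblasts into induced cardiomyocytes. Control cultures received lacZ, a bacterial gene with no known role in mouse heart cells. In all groups the genotype was aMHC-GFP: the Myh6 promoter, active in cardiomyocytes, drives a fluorescent protein. RNA was taken at day 0 and, with either vector, at days 3, 5, 7, 10 and 14, which gives 11 groups of 2 arrays. The labels of the MGT cultures also hold the word control, and group membership was taken from the vector they name. The labels state neither the age of the animals nor whether arrays of a group came from separate cultures, nor any sorting of cells. P-values therefore measure the spread between these samples only, which may be technical.

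Wnt proteins are secreted, lipid-bearing signals that bind Frizzled receptors at the cell surface. In the canonical branch, a Wnt bound to a Frizzled and to Lrp5 or Lrp6 acts through Dishevelled to stop a destruction complex of Axin, Apc and kinases from degrading beta-catenin, which then enters the nucleus and activates genes with TCF/LEF factors, among them the feedback inhibitors Axin2 and Nkd1. Other Wnts, of which Wnt5a and Wnt11 are the usual examples, mainly act without beta-catenin, on cell polarity, movement and calcium. In the heart the canonical branch is known to favour mesoderm early and to oppose cardiomyocyte formation later, and Wnt signals in cardiac fibroblasts are linked to scarring.

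Values are log2 array intensities relative to the 75th percentile of the same array, so 0 is the level of a spot at that percentile, and a difference of 1 is a doubling. They compare arrays for a gene and do not rank genes against each other. The 22 arrays each held 59305 spots other than controls, none saturated, and 48.4% to 71.0% of these rose clearly out of the background. The intensity at that percentile lay between 1271 and 2092 on 21 arrays and at 726 on the second lacZ array of day 14, and this group had the widest spread between its arrays. Days 3 and 5 shared a slide, as did days 7 and 10, and day 0 shared a slide with day 14 lacZ. Day 14 MGT lay on a slide of its own, so slide and vector cannot be told apart at day 14. Of 8 cardiomyocyte markers all 8 were higher with MGT, and the sum of their levels was 344 to 897 times the 75th percentile on the MGT arrays against 12.7 to 57.3 on the lacZ arrays. Of 8 fibroblast markers 7 were lower and 1 higher, with sums of 426 to 704 against 694 to 1401, and all 8 were above background on every array. Endothelial markers were lower for 6 of 8 genes, with sums of 6.23 to 10.2 against 8.50 to 14.9. None of 8 macrophage markers passed the test (limma), with sums of 59.5 to 165 against 47.2 to 287. Of 7 epicardial and mesothelial markers 3 were higher and 4 lower, and of 4 smooth muscle markers 1 was higher and 1 lower. In RNA of whole cultures, fewer cells of a type and less RNA per cell cannot be told apart, and the part of these shifts in the results below was not tested.

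Across the 5 days, 13 Wnt pathway genes were higher and 12 lower with MGT than with lacZ, among the 36 whose probes passed the background filter. A gene passed when some group had both its arrays well above background for a probe of it, and a call means an adjusted p under 0.05 (limma, Benjamini-Hochberg over all 18055 genes tested). Of all genes tested, 23.2% were higher and 40.5% lower, so a call alone does not set these genes apart. The split of all calls rests on the scaling: 36.4% of them were higher here and 49.7% when the arrays were scaled on probes above background on all arrays, where 14 pathway genes were higher and 11 lower. The median difference was -0.04 over the 36 genes and -0.09 over all genes. The highest fitted differences were those of Wnt5b, Fzd6, Wnt7a, Lef1 and Axin2, and the lowest was that of Wnt4. Of these, Wnt7a has no measured rank, because none of its lacZ arrays was above background, and Lef1, Axin2 and Wnt4 include arrays at background. For 8 genes the 10 MGT arrays and the 10 lacZ arrays did not overlap: Wnt5b, Wnt7a, Fzd6, Fzd5, Fzd7, Fzd3 and Axin2 lay above, against 4.96% of all genes, and Wnt4 below, against 3.75%. Fzd5 and Fzd7 stood apart only at the probe used here, and their arrays overlapped at a second probe.

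**Figure D1:**
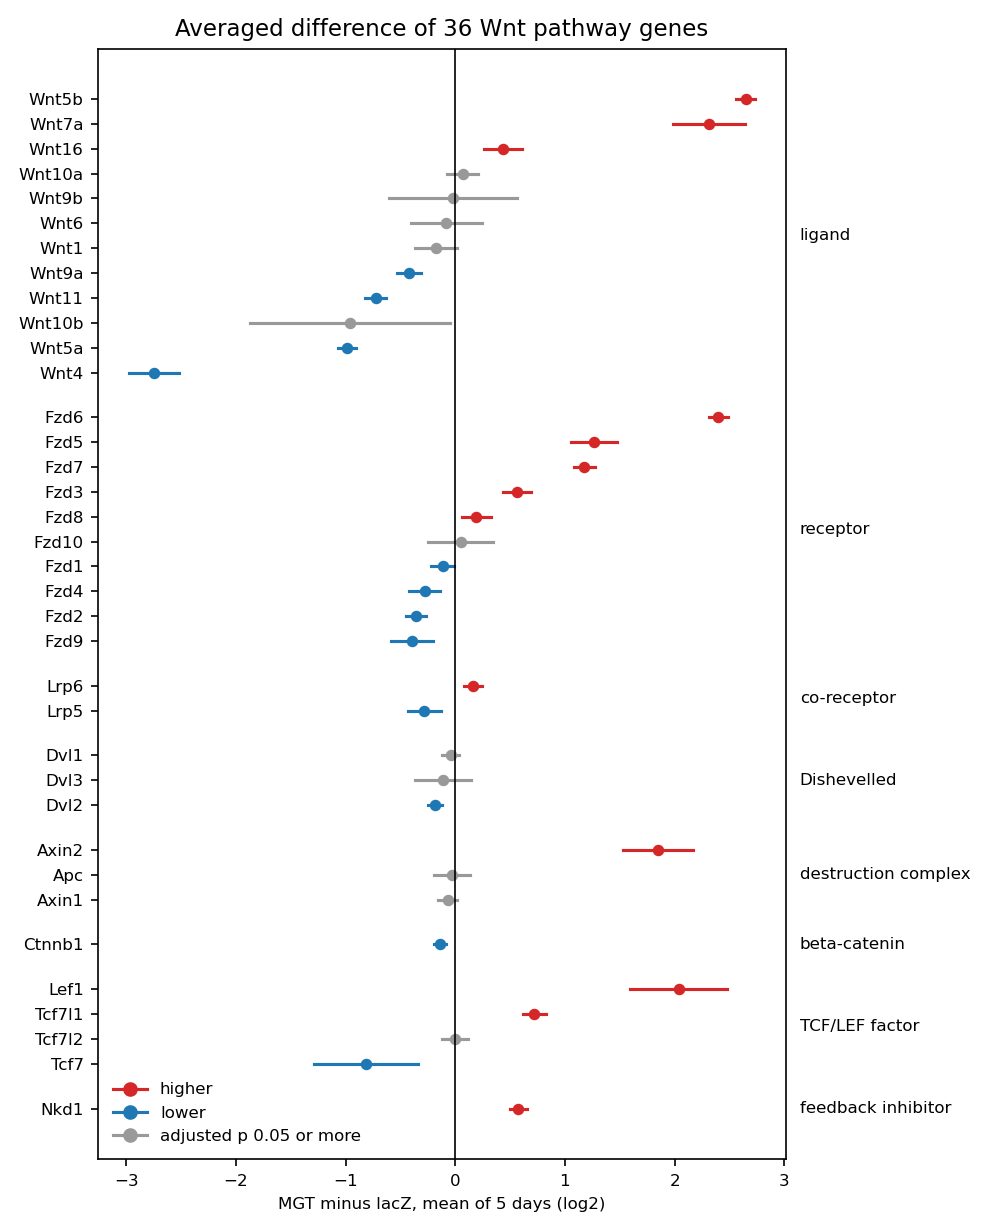
MGT minus lacZ on the log2 scale, averaged over days 3, 5, 7, 10 and 14, for the 36 Wnt pathway genes that passed the background filter, grouped by role. Points are the fitted differences and bars their 95% confidence intervals (limma, 22 arrays). Wnt5b, Fzd6, Wnt7a, Lef1 and Axin2 lie farthest to the right, and Wnt4 lies farthest to the left at -2.75; the place of Wnt7a rests on lacZ arrays not above background.

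The 6 genes that did not pass were the ligands Wnt2, Wnt2b, Wnt3, Wnt7b, Wnt8a and Wnt8b, which were above background on 0 or 1 of the 22 arrays. Wnt9b passed only through the 2 MGT arrays of day 14, the only arrays on which it was above background. Wnt7a was above background on 12 arrays, Fzd10 on 12, Wnt4 on 16, Lef1 on 17, Axin2 on 18 and Tcf7 on 6.

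Upstream sequences are shown for 3 of the genes with the highest fitted differences and for the gene with the lowest, because TCF/LEF factors bind a core of the letters CTTTG and Axin2 and Lef1 are standard readouts of that binding. The sequences are the 250 bases before the gene start in RefSeq (build GRCm38.p6), 5′ to 3′ on the gene's strand, with any match to CTTTG on either strand in capitals. They lie at chr11:108920099-108920348 (plus strand) for Axin2, chr3:131110047-131110296 (plus) for Lef1, chr6:119544348-119544597 (minus) for Wnt5b and chr4:137277385-137277634 (plus) for Wnt4.
Axin2: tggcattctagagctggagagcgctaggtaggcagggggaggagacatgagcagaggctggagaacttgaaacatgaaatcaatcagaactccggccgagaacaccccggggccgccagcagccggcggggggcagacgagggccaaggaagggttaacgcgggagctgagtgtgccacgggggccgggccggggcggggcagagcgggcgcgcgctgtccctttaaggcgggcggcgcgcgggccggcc
Lef1: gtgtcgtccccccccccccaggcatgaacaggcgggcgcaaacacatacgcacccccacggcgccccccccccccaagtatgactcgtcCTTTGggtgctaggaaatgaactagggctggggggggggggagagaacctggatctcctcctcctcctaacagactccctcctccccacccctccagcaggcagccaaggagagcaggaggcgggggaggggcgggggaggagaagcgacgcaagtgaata
Wnt5b: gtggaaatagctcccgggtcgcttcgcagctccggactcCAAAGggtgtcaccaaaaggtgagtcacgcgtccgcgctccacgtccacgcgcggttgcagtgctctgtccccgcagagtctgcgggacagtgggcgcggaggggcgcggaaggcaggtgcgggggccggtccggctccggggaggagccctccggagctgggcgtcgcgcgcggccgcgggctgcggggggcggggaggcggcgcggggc
Wnt4: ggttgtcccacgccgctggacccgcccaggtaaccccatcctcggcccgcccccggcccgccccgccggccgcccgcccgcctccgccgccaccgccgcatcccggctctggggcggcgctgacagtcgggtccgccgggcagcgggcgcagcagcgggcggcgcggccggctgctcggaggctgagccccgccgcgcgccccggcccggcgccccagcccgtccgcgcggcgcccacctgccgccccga
Lef1 held a match that starts 161 bases before the gene start, on the gene's strand, and Wnt5b held a match that starts 211 bases before it, on the opposite strand. Axin2 and Wnt4 held no match in this window. The core occurred in 48.8% of all 27025 mouse promoter sequences of the table and in 13 of the 30 that matched a Wnt pathway gene. The longer forms CTTTGAA and CTTTGAT occurred in 7.67% of all and in 1 of the 30, Wnt11. A match is a run of letters and not a measured binding site.

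Among the 12 ligands that passed, 3 were higher with MGT (Wnt5b, Wnt7a and Wnt16), 4 were lower (Wnt4, Wnt5a, Wnt11 and Wnt9a) and 5 did not pass the test. Wnt5b, a ligand best known for signalling without beta-catenin, showed the largest rise of all members. Its probe lies at chr6:119382550-119382609 (mm9). Its level was 0.82 and 0.67 on the day 0 arrays. On the lacZ arrays it was -0.83 and -0.93 at day 3, -0.84 and -0.87 at day 5, -1.10 and -1.15 at day 7, -0.94 and -1.17 at day 10 and -0.82 and -0.90 at day 14. On the MGT arrays it was 1.96 and 1.97 at day 3, 1.69 and 1.48 at day 5, 2.29 and 2.29 at day 7, 1.63 and 1.56 at day 10 and 0.98 and 1.05 at day 14. Every lacZ array lay below day 0 and every MGT array above it. MGT minus lacZ averaged 2.65 (SE 0.04, adjusted p = 4.62e-15), a 6.26-fold higher level with MGT.

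Wnt7a, a ligand that can act through either branch, was measured above background with MGT and at day 0 only. Its level was -4.76 and -4.06 at day 0, and all 10 lacZ arrays were not well above background. With MGT its arrays read -5.24 and -5.12 at day 3, -3.57 and -3.17 at day 5, -4.42 and -4.72 at day 7, -4.32 and -4.36 at day 10 and -4.51 and -4.86 at day 14. The fitted difference was 2.31 (SE 0.15, adjusted p = 1.35e-08) by limma, and since the lacZ level is only a bound, Wnt7a was at least 1.75-fold higher with MGT. Such bounds set the bright group's mean against the higher of the dim value and the dimmest signal above background on that array. With another background correction (normexp) the averaged difference was 0.71, still past the threshold.

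Wnt16, a ligand known from bone and joint tissue, rose late. Its level was -2.92 and -2.82 at day 3, -3.18 and -3.11 at day 5, -2.86 and -2.86 at day 7, -2.84 and -3.11 at day 10 and -3.25 and -2.89 at day 14 on the lacZ arrays. It was -3.22 and -3.14 at day 3, -2.65 and -2.42 at day 5, -2.92 and -3.01 at day 7, -2.18 and -2.36 at day 10 and -1.70 and -1.89 at day 14 on the MGT arrays. At this probe (base 947) MGT lay slightly below lacZ at days 3 and 7 and above it at days 5, 10 and 14. A second probe at base 840 gave -0.12 (SE 0.23, adjusted p = 0.739) at day 5, 0.10 (SE 0.23, adjusted p = 0.821) at day 7, 0.86 (SE 0.23, adjusted p = 0.0125) at day 10 and 2.54 (SE 0.23, adjusted p = 2.02e-06) at day 14, so both probes passed at days 10 and 14 and at day 5 only the probe at base 947 did. On average the difference was 0.43 (SE 0.08, adjusted p = 0.000292), and within the slide of days 3 and 5 and that of days 7 and 10 it was 0.15 and 0.30, neither past the threshold. Over days 3 to 10 it was 0.23 and passed.

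Wnt4, a ligand with roles in kidney and gonad formation that has been linked to fibrosis, had the lowest fitted difference. Its probe spans chr4:136851690-136852258 (mm9). At day 0 its values of -5.86 and -5.91 were not well above background. With lacZ its arrays read -4.35 and -4.40 at day 3, -3.15 and -2.96 at day 5, -2.12 and -2.36 at day 7, -1.98 and -2.18 at day 10 and -2.22 and -2.98 at day 14. The MGT arrays read -5.66 and -5.87 at day 3, -5.93 and -5.48 at day 5, -5.14 and -5.11 at day 7, -5.87 and -5.27 at day 10 and -5.89 and -5.94 at day 14, with 6 of 10 arrays above background. The lacZ arrays climbed from background, and the MGT arrays lay near it. Over the 5 days the fitted difference was -2.75 (SE 0.10, adjusted p = 5.03e-11), which includes 4 MGT arrays not above background, and with normexp correction it was -1.48.

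Wnt5a, the standard ligand of signalling without beta-catenin, was lower with MGT throughout. It was -0.61 and -0.54 at day 0. The lacZ arrays read -0.63 and -0.66 at day 3, -0.28 and -0.39 at day 5, 0.31 and 0.29 at day 7, 0.73 and 0.59 at day 10 and 0.87 and 0.72 at day 14. On the MGT arrays it was -1.29 and -1.09 at day 3, -1.20 and -1.11 at day 5, -0.50 and -0.63 at day 7, -0.55 and -0.59 at day 10 and -0.63 and -0.74 at day 14. The lacZ level rose above day 0 from day 5 on, while no MGT array exceeded the higher day 0 array except the first of day 7. The fitted average was -0.99 (SE 0.04, adjusted p = 5.27e-11), or 1.98-fold lower.

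Wnt11, a second ligand of that branch with a known role in heart development, moved with Wnt5a in direction. Its level was -1.98 and -2.05 at day 3, -1.95 and -1.86 at day 5, -1.35 and -1.35 at day 7, -1.0 and -1.03 at day 10 and -0.75 and -0.85 at day 14 on the lacZ arrays and -1.62 and -1.69 at day 0. With MGT its arrays read -2.59 and -2.72 at day 3, -2.41 and -2.37 at day 5, -2.33 and -2.20 at day 7, -1.63 and -1.94 at day 10 and -1.72 and -1.54 at day 14. MGT lay below lacZ on each day with no overlap within a day. MGT minus lacZ averaged -0.73 (SE 0.04, adjusted p = 4.42e-09). Wnt9a was lower by a smaller amount, -0.42 (SE 0.05, adjusted p = 6.42e-06), with lacZ arrays between 0.59 and 1.64 and MGT arrays between 0.09 and 0.92.

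Of the other ligands, Wnt10b had the widest spread and its averaged difference of -0.96 did not pass (adjusted p = 0.0619, limma). Its arrays read -2.94 and -3.09 at day 3, -3.5 and -1.84 at day 5, -3.98 and -4.61 at day 7, -0.93 and -3.47 at day 10 and -3.94 and -3.75 at day 14 with lacZ. They read -3.97 and -3.73 at day 3, -1.61 and -5.07 at day 5, -4.19 and -4.67 at day 7, -4.61 and -5.14 at day 10 and -4.18 and -4.50 at day 14 with MGT. At day 5 the arrays of each vector lay far apart and their ranges overlapped. Wnt1 (95% interval of the averaged difference -0.37 to 0.02), Wnt6 (-0.41 to 0.25), Wnt10a (-0.08 to 0.21) and Wnt9b (-0.60 to 0.56) did not pass either.

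**Figure D2:**
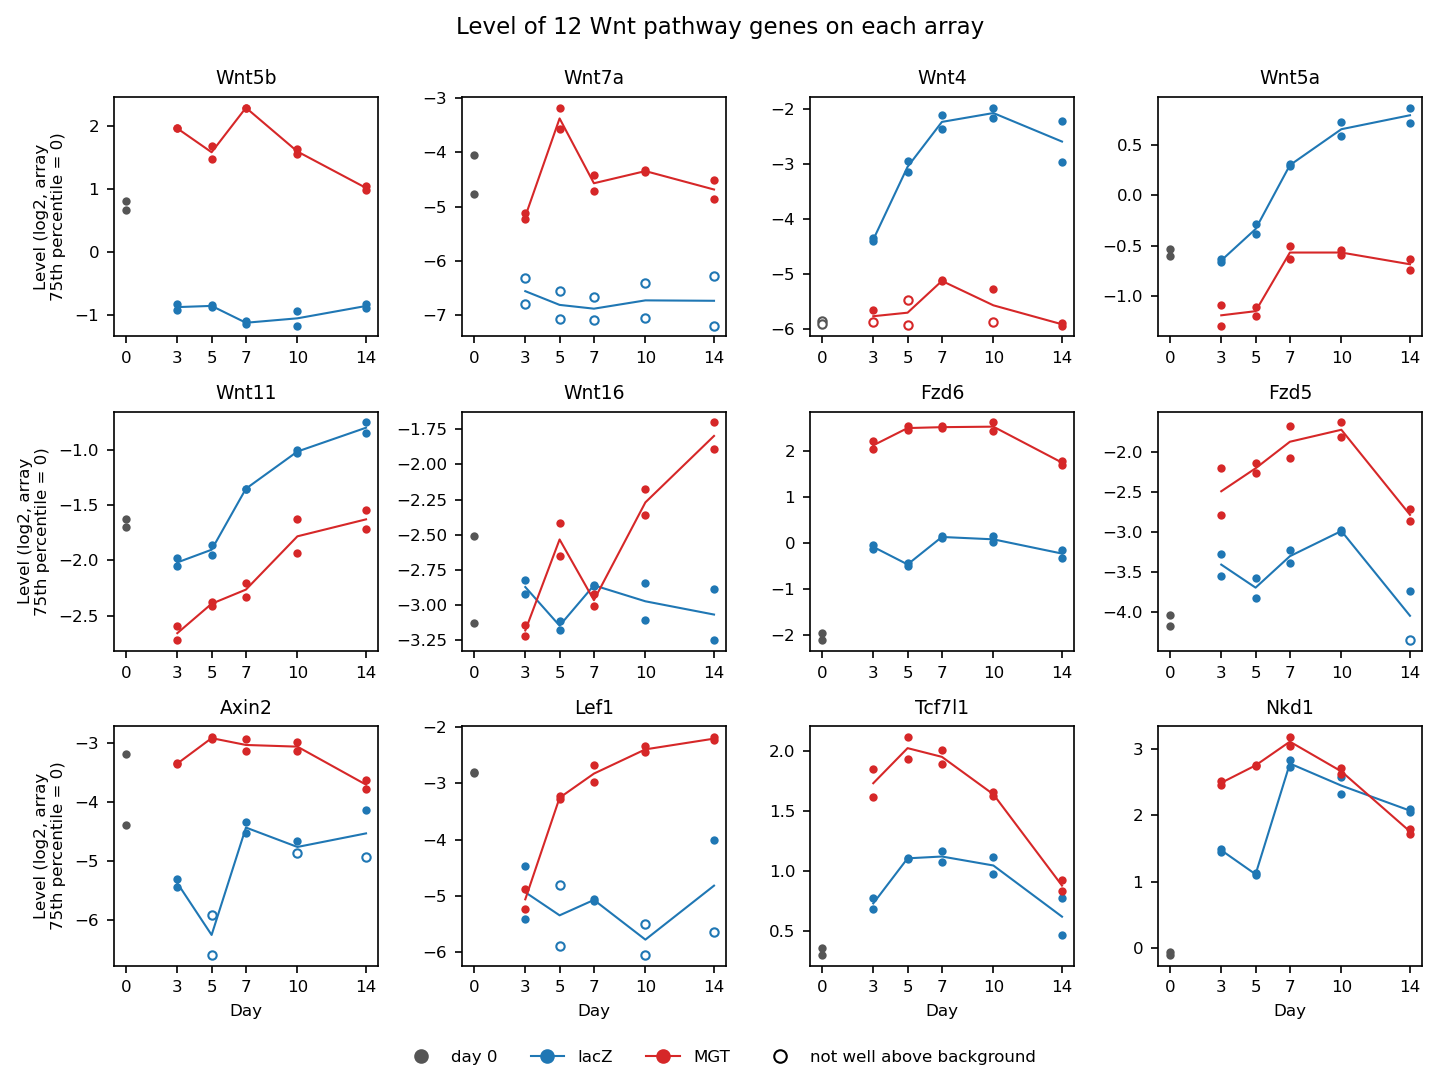
Level of 12 Wnt pathway genes by day, in log2 units relative to the 75th percentile of each array, for day 0, lacZ and MGT cultures. Each point is an array, open points were not well above background, lines join group means, and each panel has its own scale. Wnt4, Wnt5a and Wnt11 climb with lacZ, Lef1 climbs with MGT between days 3 and 5, and the lacZ and MGT lines of Nkd1 cross between days 10 and 14.

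All 10 Frizzled receptors passed the filter, and 5 were higher with MGT, 4 lower and 1 (Fzd10) not called. Fzd6, a receptor known from planar cell polarity in skin and hair, rose most. Its probe lies at chr15:38869107-38869166 (mm9). It was -2.13 and -1.97 at day 0, lower than on any later array. On the lacZ arrays it was -0.14 and -0.05 at day 3, -0.43 and -0.52 at day 5, 0.10 and 0.14 at day 7, 0.01 and 0.13 at day 10 and -0.15 and -0.32 at day 14. The MGT arrays read 2.03 and 2.21 at day 3, 2.45 and 2.53 at day 5, 2.53 and 2.49 at day 7, 2.43 and 2.61 at day 10 and 1.78 and 1.70 at day 14. Each vector lay above day 0, and MGT lay far above lacZ. On average the difference was 2.40 (SE 0.04, adjusted p = 1.63e-14), or 5.27-fold.

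Fzd5, a receptor of canonical signalling in the eye and gut, was -3.27 and -3.54 at day 3, -3.57 and -3.82 at day 5, -3.38 and -3.22 at day 7, -2.98 and -2.99 at day 10 and -3.74 and -4.35 at day 14 with lacZ. With MGT it was -2.79 and -2.20 at day 3, -2.27 and -2.14 at day 5, -1.68 and -2.08 at day 7, -1.82 and -1.64 at day 10 and -2.71 and -2.86 at day 14. The lowest MGT array lay above the highest lacZ array. Over the 5 days the difference was 1.27 (SE 0.10, adjusted p = 7.06e-08) at the probe used, and a second probe near the middle of the transcript gave 0.36 (SE 0.09, adjusted p = 0.00511), in the same direction and smaller. That second probe passed at day 10 (0.83) but not at days 3, 5, 7 and 14 (0.29, 0.16, 0.44 and 0.06). Its MGT and lacZ arrays overlapped.

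Fzd3, a receptor that guides axons, was higher by 0.56 (SE 0.06, adjusted p = 1.78e-06). Its lacZ arrays ran from -1.56 to -0.97 and its MGT arrays from -0.90 to -0.37, so all 10 of each stood apart. Fzd8 was higher by 0.19 (adjusted p = 0.0152, limma), with overlapping arrays, and did not pass when only days 3 to 10 were averaged.

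Fzd7, a receptor of stem and progenitor cells that can serve either branch, gave opposite answers at its probes. At base 4201 of the transcript (chr1:59543192-59543251, mm9), the probe used here, its level was 0.08 and 0.10 at day 3, 0.36 and 0.27 at day 5, 0.77 and 0.91 at day 7, 0.54 and 0.84 at day 10 and 0.45 and 0.22 at day 14 with lacZ. With MGT it was 1.35 and 1.44 at day 3, 1.72 and 1.75 at day 5, 1.99 and 1.98 at day 7, 1.86 and 1.88 at day 10 and 1.20 and 1.13 at day 14. The averaged difference there was 1.18 (SE 0.04, adjusted p = 5.53e-11). At base 2376 (chr1:59541367-59541426) the level was 0.96 and 0.97 at day 3, 1.19 and 1.21 at day 5, 1.19 and 1.21 at day 7, 1.15 and 1.08 at day 10 and 0.09 and 0.59 at day 14 with lacZ. It was 0.53 and 0.55 at day 3, 0.74 and 0.87 at day 5, 0.74 and 0.84 at day 7, 0.74 and 0.88 at day 10 and -0.49 and -0.51 at day 14 with MGT at that base. This probe showed lower levels with MGT at every day, with a difference of -0.48 (SE 0.05, adjusted p = 6.02e-06). Day 0 also differed between them: 0.31 and 0.13 at base 4201, within the range of the lacZ arrays, and -1.34 and -1.38 at base 2376, below all of them. Both calls passed the test in opposite directions, so Fzd7 has no settled direction, and the counts above and below take it at base 4201.

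The Fzd7 probe at base 2376 is shown with the Fzd2 probe at base 1868, because the genes are close relatives and the stretches are alike. Capitals mark the bases that are identical where the sequences overlap.
Fzd7 probe at base 2376: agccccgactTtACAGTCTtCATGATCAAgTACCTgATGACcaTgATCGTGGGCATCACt
Fzd2 probe at base 1868: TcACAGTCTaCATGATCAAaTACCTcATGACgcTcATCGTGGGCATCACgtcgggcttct
The overlap is 50 bases long, and 42 of these (84%) are identical. Fzd2, a receptor of canonical and calcium signalling, was 2.30 and 2.18 at day 0 at that probe. It was 3.89 and 3.91 at day 3, 4.16 and 4.20 at day 5, 4.16 and 4.17 at day 7, 4.10 and 4.0 at day 10 and 3.90 and 3.5 at day 14 with lacZ. It was 3.5 and 3.5 at day 3, 3.71 and 3.78 at day 5, 3.77 and 3.77 at day 7, 3.74 and 3.79 at day 10 and 3.47 and 3.41 at day 14 with MGT. Both this probe and the Fzd7 probe at base 2376 were lowest at day 0, higher with lacZ and between them with MGT. The averaged difference of Fzd2 was -0.36 (SE 0.04, adjusted p = 8.33e-06), and its second probe at base 3300 gave -0.54 (SE 0.04, adjusted p = 1.56e-07). Whether transcripts of a relative bound to the Fzd7 probe was not tested.

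**Figure D3:**
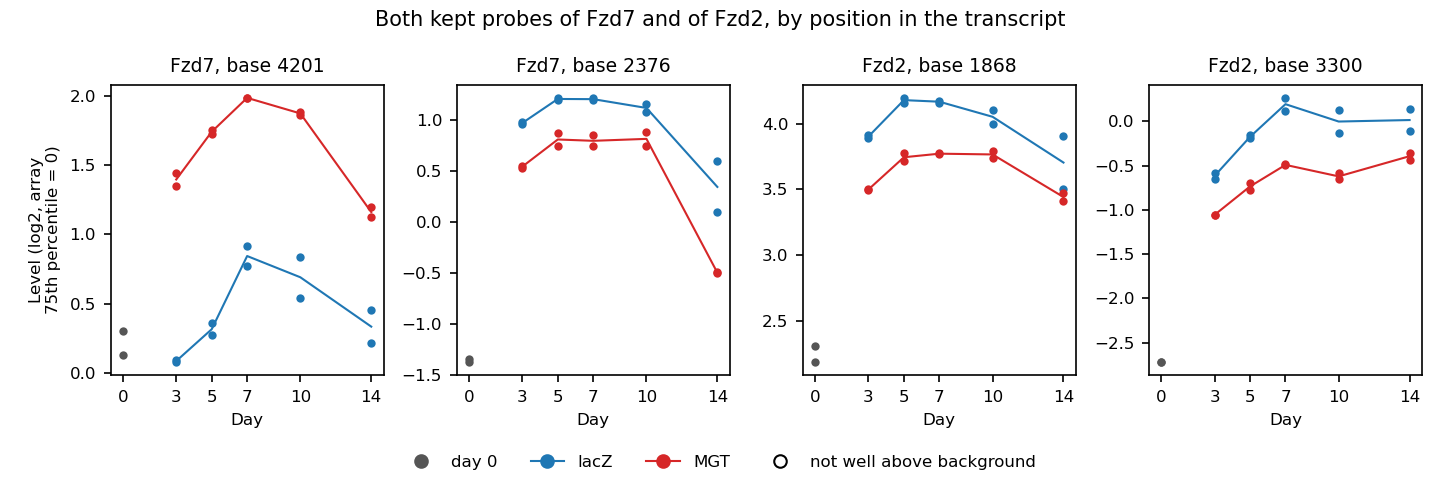
Level by day at the 2 kept probes of Fzd7 and of Fzd2, titled by the base of the transcript at which each probe starts, in log2 units relative to the 75th percentile of each array. Each point is an array and lines join group means. MGT lies above lacZ at base 4201 of Fzd7 and below it at base 2376 and at both Fzd2 probes.

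Fzd9, Fzd4 and Fzd1 were also lower with MGT. Fzd9 differed by -0.40 (SE 0.09, adjusted p = 0.00146), with lacZ at -2.87 and -2.96 at day 3, -3.52 and -3.85 at day 5, -4.28 and -4.66 at day 7, -3.76 and -4.40 at day 10 and -4.48 and -4.72 at day 14. With MGT it read -3.81 and -3.83 at day 3, -4.44 and -4.36 at day 5, -4.34 and -4.59 at day 7, -4.68 and -4.42 at day 10 and -4.37 and -4.64 at day 14. MGT lay below lacZ at days 3, 5 and 10 and overlapped it at days 7 and 14. Fzd4, the receptor of Norrin in blood vessels, differed by -0.28 (SE 0.07, adjusted p = 0.00219). Fzd1 differed by -0.12 (adjusted p = 0.0434, limma), and this call was lost with normexp, quantile or deposited scaling and over days 3 to 10. Fzd10 lay near background on most arrays, with an interval of -0.25 to 0.35.

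The co-receptors differed little and in opposite directions. Lrp5 was lower, at -0.28 (SE 0.07, adjusted p = 0.00298) on average, and day 14 was the only day on which it passed, where lacZ read 1.54 and 2.22 and MGT 0.93 and 0.97. Averaged over days 3 to 10 its difference was -0.12 and did not pass. Lrp6 was higher by 0.16 (SE 0.04, adjusted p = 0.00190), and a second probe did not pass. Of the Dishevelled genes, which carry the signal from receptor to destruction complex, Dvl2 was lower, at -0.18 (SE 0.03, adjusted p = 0.000125). A second Dvl2 probe at base 4999 gave -0.19 (SE 0.18, adjusted p = 0.386, limma), in the same direction but not past the threshold. Dvl1 (-0.12 to 0.04) and Dvl3 (-0.37 to 0.15) did not pass.

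In the destruction complex the scaffold genes parted. Axin2, which beta-catenin itself induces as a brake, was -3.19 and -4.39 at day 0. With lacZ its arrays read -5.30 and -5.44 at day 3, -5.91 and -6.59 at day 5, -4.34 and -4.53 at day 7, -4.86 and -4.67 at day 10 and -4.14 and -4.93 at day 14, with 0 of 2 arrays above background at day 5. On the MGT arrays it was -3.35 and -3.36 at day 3, -2.94 and -2.91 at day 5, -3.14 and -2.94 at day 7, -3.14 and -2.99 at day 10 and -3.64 and -3.78 at day 14, all above background. The lowest MGT array lay above the highest lacZ array. These Axin2 readings are from the probe at base 4196. A second probe of Axin2 at base 1971 was above background on only 1 array and was left out, so the rise rests on 1 probe. The fitted average was 1.85 (SE 0.15, adjusted p = 1.17e-07), which includes 4 lacZ arrays not above background. It was 0.88 with normexp correction and 0.80 in the deposited scaling. By day it was 2.02, 3.33 (at least 3.11-fold), 1.40, 1.70 and 0.82, the last with an adjusted p of 0.0556 (limma). Its relative Axin1, the constitutive scaffold, differed by -0.07 (-0.16 to 0.02) and Apc, the partner that holds beta-catenin, by -0.03 (-0.20 to 0.13), and neither passed.

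Ctnnb1, which encodes beta-catenin, was lower, at -0.14 (SE 0.03, adjusted p = 0.000460). All arrays lay between 3.98 and 4.43, and MGT and lacZ overlapped. The call was lost with normexp, quantile or the deposited scaling. Its RNA level says nothing of the protein, whose amount is set by degradation.

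Of the 4 TCF/LEF factors, 2 were higher with MGT and 1 lower. Lef1, an activating factor that is itself a target of the pathway, was -2.81 and -2.82 at day 0. The lacZ arrays read -4.46 and -5.41 at day 3, -5.89 and -4.81 at day 5, -5.05 and -5.09 at day 7, -5.50 and -6.05 at day 10 and -4.0 and -5.64 at day 14, with 5 of 10 arrays above background. With MGT its arrays read -4.88 and -5.24 at day 3, -3.29 and -3.23 at day 5, -2.67 and -2.98 at day 7, -2.35 and -2.45 at day 10 and -2.18 and -2.24 at day 14. At day 3 both vectors lay below day 0 and overlapped, and from day 5 on MGT stood above lacZ. MGT minus lacZ averaged 2.04 (SE 0.20, adjusted p = 1.29e-06). Within the slide of days 3 and 5 it was 0.98, past the threshold. By day it was -0.13, 2.09 (at least 2.46-fold), 2.24, 3.38 (at least 6.43-fold) and 2.61.

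Tcf7l1, the factor known mostly as a repressor, was 0.78 and 0.68 at day 3, 1.10 and 1.11 at day 5, 1.17 and 1.08 at day 7, 1.12 and 0.98 at day 10 and 0.77 and 0.47 at day 14 with lacZ. With MGT it was 1.62 and 1.85 at day 3, 1.94 and 2.12 at day 5, 2.01 and 1.90 at day 7, 1.63 and 1.66 at day 10 and 0.93 and 0.84 at day 14. MGT was above lacZ on each day, by 1.0 at day 3 and 0.26 at day 14, the latter not past the threshold. On average the difference was 0.72 (SE 0.05, adjusted p = 1.67e-08). Tcf7, an activating factor of T cells and progenitors, was above background on both arrays only at day 0 (-3.29 and -3.22) and in day 3 lacZ. Its averaged difference of -0.81 (SE 0.22, adjusted p = 0.00541) rests on readings near background, with 1 of 10 MGT and 3 of 10 lacZ arrays above it, and it was -0.11 and not past the threshold in the deposited scaling. Tcf7l2 did not pass at the probe used (-0.12 to 0.11), while a probe at base 2644 gave 0.44 (SE 0.06, adjusted p = 1.91e-05) and was higher with MGT on each day. By day that probe passed at days 5, 7 and 10 and not at days 3 and 14. A further probe at base 1724 gave 0.05 (SE 0.13, adjusted p = 0.749, limma). At day 14 the probe used was lower with MGT (-0.34), past the threshold.

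Nkd1, which binds Dishevelled and dampens the signal, was -0.06 and -0.10 at day 0. On the lacZ arrays it was 1.45 and 1.49 at day 3, 1.13 and 1.10 at day 5, 2.72 and 2.84 at day 7, 2.57 and 2.32 at day 10 and 2.09 and 2.04 at day 14. The MGT arrays read 2.46 and 2.51 at day 3, 2.75 and 2.75 at day 5, 3.17 and 3.04 at day 7, 2.70 and 2.61 at day 10 and 1.80 and 1.71 at day 14. It was far above day 0 with each vector, above lacZ with MGT from day 3 to day 10, and below it at day 14. Over the 5 days the difference was 0.58 (SE 0.04, adjusted p = 7.82e-09). In the deposited scaling it was 0.37 and not past the threshold. A second probe read -5.18 and -4.85 at day 3, -4.44 and -1.25 at day 5, -3.17 and -3.03 at day 7, -2.05 and -3.87 at day 10 and -3.43 and -3.17 at day 14 with lacZ, with the arrays of days 5 and 10 far apart, and gave 0.18 (SE 0.47, adjusted p = 0.768).

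Day by day, the genes called higher and lower were 9 and 9 at day 3 (all genes 12.1% and 18%), 12 and 7 at day 5 (16.2% and 21.5%), 10 and 6 at day 7 (14.7% and 22.6%), 12 and 6 at day 10 (15.1% and 23.9%) and 8 and 13 at day 14 (18.2% and 29.1%). The day 14 split turned to 13 higher and 8 lower when the arrays were scaled on probes above background on all arrays. The highest fitted differences were Wnt5b (2.84) and Fzd6 (2.21) at day 3 and Wnt5b (3.42) and Fzd6 (2.39) at day 7. At day 10 they were Lef1 (at least 6.43-fold, with lacZ not above background) and Wnt5b (2.65), and at day 14 Lef1 (2.61, with 1 of 2 lacZ arrays above background). At day 5 Wnt7a and Axin2 and at day 14 Wnt7a also had high fitted values, but against lacZ arrays not above background, which leaves at least 2.28-fold, 3.11-fold and 1.02-fold and no rank. Among genes measured on all 4 arrays of the day, Fzd6 (2.97) and Wnt5b (2.44) were highest at day 5, and Fzd6 (1.98) and Wnt5b (1.88) at day 14. Wnt4 had the lowest fitted difference on each day, between -1.39 at day 3 and -3.49 at day 10, and was at least 4.51-fold lower at day 5. The next largest falls were Fzd9 at day 3 (-0.90), Wnt5a at day 5 (-0.82), Wnt11 at day 7 (-0.91), Wnt10b at day 10 (-2.67) and Wnt5a at day 14 (-1.48). Tcf7 was called lower at day 14 too, but none of its 4 arrays of that day was above background, so no size is given. The Wnt10b difference was -1.40 without the first lacZ array of day 10, -2.94 without the first and -2.41 without the second MGT array of that day, none past the threshold. The Lef1 and Wnt7a calls of day 14 were lost when only the arrays of that day were fitted, and that of Wnt7a also with normexp (0.12). The Tcf7 call was lost without the second lacZ or the second MGT array of day 14.

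At day 14 the count of lower genes fell from 13 to 6 without the second MGT array and to 9 without the second lacZ or the first MGT array of that day. It was 3 when only the 4 arrays of that day were fitted, and 4 were then higher.

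**Figure D4:**
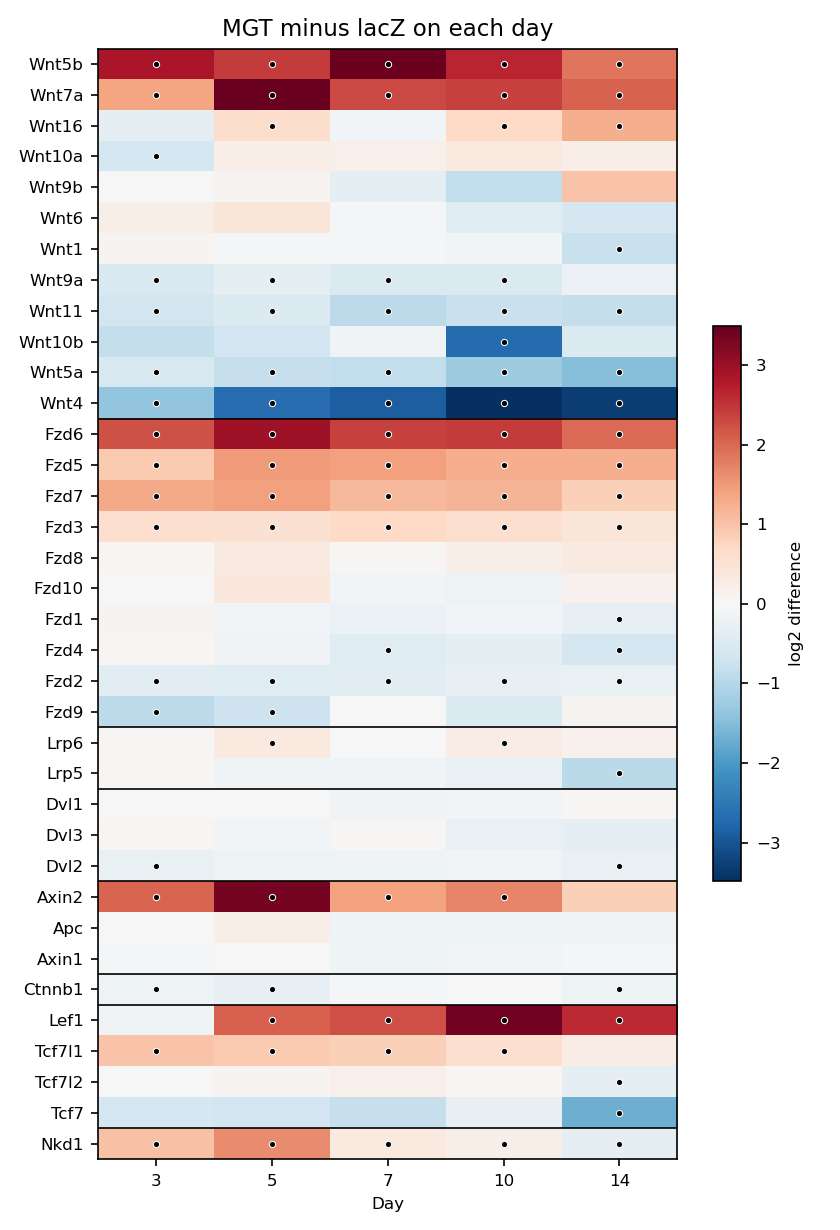
MGT minus lacZ (log2) on each of the 5 days for the 36 Wnt pathway genes that passed the background filter, in the order of roles used above, red for higher and blue for lower with MGT. Dots mark an adjusted p under 0.05 (limma). Wnt5b, Wnt7a, Fzd6, Fzd5, Fzd7 and Fzd3 are called higher and Wnt4, Wnt5a, Wnt11 and Fzd2 lower on all 5 days. Fzd5 and Fzd7 are shown at the probe used: a second probe of Fzd5 passed at day 10 only, and a second probe of Fzd7 was lower with MGT on each day.

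The difference between the vectors depended on the day for 14 of the 36 genes (limma F test, adjusted p under 0.05), against 26.1% of all genes. From day 3 to day 14 it increased for 4 and decreased for 9, against 12.3% and 14.9%. Lef1 gained 2.73, Wnt16 1.58, Fzd9 1.0 and Wnt10a 0.85. The Fzd9 change was not past the threshold without the first lacZ (0.95) or second MGT array of day 3 (0.99), or the second lacZ (0.87) or first MGT array of day 14 (0.86). It was 0.20 with normexp correction and 0.43 from day 3 to day 10, neither past the threshold. The Wnt16 change was 0.88 with normexp and 2.78 (SE 0.32, adjusted p = 9.59e-05) at its second probe, both past it. The count of 14 fell to 8 without the first lacZ or the second MGT array of day 3, and to 9 without the second lacZ array of day 3 or the second MGT array of day 14. Wnt10a moved from below lacZ at day 3 (-0.62) to 0.23 at day 14, the latter not past the threshold. The largest decreases were Wnt4 (-1.93), Nkd1 (-1.33), Wnt5b (-0.96) and Lrp5 (-0.96, and -0.62 without the second lacZ array of day 14). Wnt5b and Nkd1 started above lacZ, and the second Nkd1 probe gave a change of -1.82 (SE 1.48, adjusted p = 0.433, limma). Wnt4 started below lacZ, and its difference widened as the lacZ arrays climbed. Its MGT arrays lay near background, so the sizes given for Wnt4 here and below rest on such readings. Slides differ in this comparison at day 14, so the same change was taken from day 3 to day 10, where both vectors shared a slide on each day. It then passed for 6 genes: Lef1 (3.5, with the lacZ arrays of day 10 not above background), Wnt16 (1.01) and Wnt10a (0.95) increased, and Wnt4 (-2.10), Nkd1 (-0.80) and Wnt5a (-0.68) decreased. For Wnt5b it was -0.19 and for Lrp5 -0.29, neither past the threshold.

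Levels at day 14 were set against day 0 for each vector, to show which culture had moved by that day. These comparisons share the day 0 arrays, and the MGT one is across slides. With lacZ, 15 genes were higher and 11 lower at day 14 (all genes 35.2% and 33.6%). With MGT, 15 were higher and 7 lower (32.8% and 37.7%). Wnt4 rose with lacZ by 3.29 (at least 7.88-fold, since day 0 was not above background) and read -0.03 with MGT. Wnt5a rose by 1.37 with lacZ and read -0.11 with MGT. Wnt11 rose by 0.86 and read 0.03. For these 3 ligands the lacZ cultures had moved by day 14 and the MGT value of that day did not pass the test. For Wnt4 that MGT value sets readings near background against day 0 arrays not above it. It therefore cannot show whether Wnt4 changed with MGT. At day 3 the MGT arrays of Wnt5a and Wnt11 lay below day 0, and the lacZ arrays lay closer to it. That earlier step with MGT was not tested.

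Wnt7a and Lef1 showed the opposite layout, with a fall in lacZ. Wnt7a was at least 1.23-fold lower with lacZ at day 14 and read -0.27 with MGT (adjusted p = 0.483, limma). Lef1 was lower, at -2.0 (SE 0.46, adjusted p = 0.00161) with lacZ, where the second array was not above background, and read 0.61 with MGT (adjusted p = 0.254). The Lef1 fall was -1.19 without the second lacZ array of day 14 and -0.72 with normexp, both past the threshold. It was not past it when only the arrays of that comparison were fitted, nor the Wnt7a fall with normexp correction. Wnt5b read -1.60 with lacZ, past the threshold, and rose by 0.28 with MGT. Fzd6 rose with each vector, by 1.81 with lacZ and 3.79 with MGT.

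**Figure D5:**
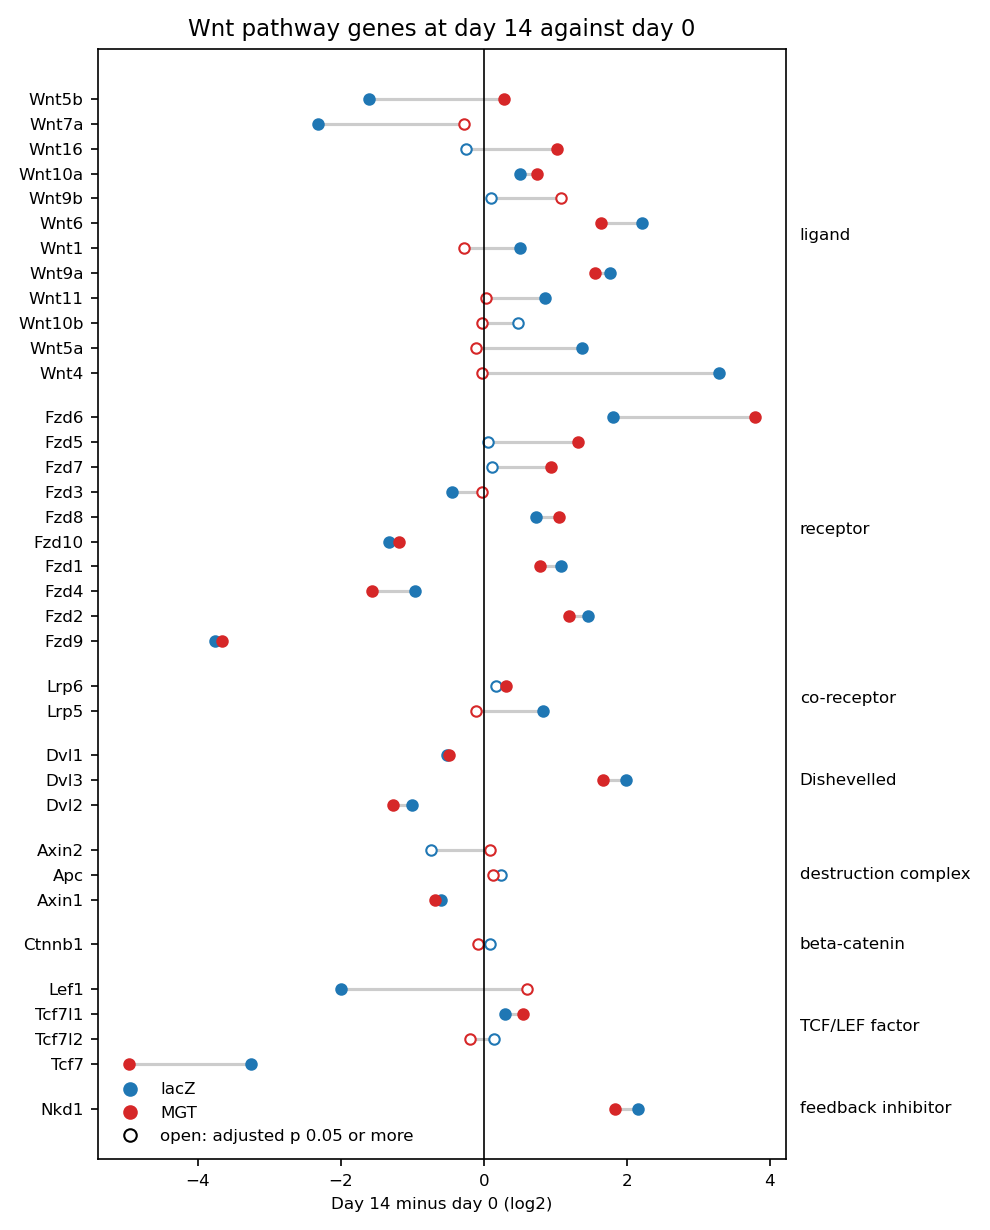
Day 14 minus day 0 (log2) for lacZ and MGT cultures of the 36 Wnt pathway genes, grouped by role; grey lines join the values of a gene. Filled points have an adjusted p under 0.05 (limma) and open points do not. Wnt4, Wnt5a and Wnt11 lie right of 0 with lacZ and near 0 with MGT, and Fzd9 and Tcf7 lie far to the left with each vector. The MGT point of Wnt4 rests on readings near background at day 14 and not above it at day 0.

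Several other members, named next, lay on the same side of day 0 with each vector, though some of them differed between the vectors at day 14. Nkd1 rose by 2.15 and 1.84, Wnt6 by 2.21 and 1.64 and Dvl3 by 1.99 and 1.66 with lacZ and MGT. The second Nkd1 probe gave 1.57 with lacZ (adjusted p = 0.213, limma) and 1.05 with MGT (adjusted p = 0.408), neither past the threshold. Fzd9 read -3.76 and -3.66, Fzd4 -0.97 and -1.57 and Dvl2 -1.01 and -1.26, all lower. Tcf7 was at least 2.73-fold lower with lacZ and at least 11.7-fold lower with MGT. Much of this was present by day 3 with lacZ, when 15 genes were higher and 12 lower than at day 0 (all genes 28.3% and 29.3%, across slides). The largest of these were Fzd6 (1.96), Fzd2 (1.66), Nkd1 (1.55) and Wnt4 (at least 2.30-fold) upward, and Wnt7a (at least 2.88-fold), Lef1 (-2.12), Fzd9 (-2.07) and Tcf7 (-1.94) downward.

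The wider pathway was read from lists of known Wnt genes in the averaged comparison, each beside the 23.2% higher and 40.5% lower of all genes. Of 10 secreted antagonists measured, which bind Wnts or Lrp5 and Lrp6 outside the cell, 7 were lower and 3 higher. Sfrp1 (-3.34), Sfrp2 (-3.16) and Dkk1 (-2.22) had the lowest fitted values, Dkk1 with only 3 of 10 MGT and 7 of 10 lacZ arrays above background. Sfrp4, above background on all of them, was at -2.12. Wif1 was above background on 10 of 10 MGT and 0 of 10 lacZ arrays, at least 142-fold higher, Sost was at least 2.18-fold higher, and Sfrp5 was higher by 1.94, with 4 of 10 lacZ arrays above background. The members of this list thus moved in both directions, and the largest changes of the wider pathway were among them.

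Of 16 genes reported as Wnt targets, 11 were lower and 4 higher, a list that shares no gene with the members. Sp5 (-1.89), Sox9 (-1.73) and Fosl1 (-1.57) had the lowest values, Sp5 with 5 of 10 MGT and 6 of 10 lacZ arrays above background, and Tnfrsf19 (1.27), Nkd2 (0.95) and Cd44 (0.59) rose most. Axin2 and Lef1, also standard targets, were higher, and so the targets did not share a direction. Of 7 R-spondin, Lgr and related genes, which raise or limit the amount of receptor at the surface, 3 were higher (Lgr6 1.02 with 6 of 10 MGT and 2 of 10 lacZ arrays above background, Rspo2 0.51, Rspo3 0.29) and 2 lower (Rspo1 -0.91, Znrf3 -0.82). Of 15 other receptors and planar polarity genes, 4 were higher, led by Daam2 (1.61), Ror2 (1.17) and Prickle1 (0.34), and 8 lower, led by Ror1 (-0.94), Gpc4 (-0.71) and Celsr1 (-0.59). Ror2 is a receptor of Wnt5a, which was itself lower.

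Of 12 further genes of the destruction complex and its kinases, 3 were higher (Frat2 0.54, Btrc 0.48, Tnks 0.18) and 6 lower (Csnk1a1 -0.36 the most). Of 12 cofactors of beta-catenin, 2 were higher (Tle4 0.74, Bcl9l 0.49) and 7 lower (Tle1 -0.51, Pygo1 -0.44 and Ctbp2 -0.24 the most). Wls, which carries Wnts to the cell surface, was lower, at -0.30 on the log2 scale, and Porcn, which attaches their lipid, did not pass. The changes in these intracellular lists were below 1 on the log2 scale. Members above 1 included Wnt5b and Fzd6 and also the intracellular Axin2 (1.85) and Lef1 (2.04), both with some lacZ arrays not above background. Most ligands and receptors that passed the filter changed by less than 1.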

How the data were processed

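Total RNA was hybridised in 1 colour (Cy3) to 22 Agilent mouse arrays, per the labels' protocols. Per the file headers, Agilent Feature Extraction 10.7.3.1 gave the deposited spot intensity, already background-subtracted. A deposited table holds 1 intensity per gene name, made with limma per the submitters' processing notes; its scale is not stated, and it served as an alternative. Each array's log2 intensity minus its 75th percentile was fitted with 11 group means in limma 3.58.1 (R 4.3.3), with p-values adjusted by Benjamini-Hochberg. Of 55681 probes 30186 had a mouse symbol, and 38800 passed the background filter. The kept probe with the highest mean stood for its gene. The fit was run on simulated data with independent noise and, for the changed genes, the same shift on all MGT arrays. That run did not cover slide effects or signals at background. Members and lists were chosen with earlier results of these data known. Described in full are members called in the averaged comparison with a difference of at least 0.5, and the largest per comparison: 2 of each direction per day, 4 for the change over time and for day 0, and up to 3 per list. Probe positions are mm9, promoters GRCm38.p6 (RefSeq).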

Additional observations from a re-analysis of the deposited data

Results flagged for a closer look

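For 13 of the 36 Wnt pathway genes the difference between MGT and lacZ changed from day 3 to day 14 in a test of that change (limma, adjusted p under 0.05). It increased for Lef1 (2.73), Wnt16 (1.58), Fzd9 (0.998) and Wnt10a (0.85). It decreased for Wnt4 (-1.93), Nkd1 (-1.33), Wnt5b (-0.96), Lrp5 (-0.96), Wnt5a (-0.94), Wnt1 (-0.86), Tcf7l1 (-0.74), Fzd4 (-0.66) and Fzd7 (-0.48, at the probe at base 4201). These are log2 values with standard errors between 0.11 for Nkd1 and 0.65 for Lef1. The size for Wnt4 rests on MGT arrays near background. Wnt1 passed on day 14 alone, where the lacZ arrays read -0.55 and 0.32 and the MGT arrays -0.93 and -0.86. These Wnt1 readings are from the probe at base 2310, above background on all 22 arrays. A second probe of Wnt1 at base 1385 was above background on only 1 array and was left out. The vectors lay on different slides at day 14, and from day 3 to day 10 the change passed for Lef1, Wnt16, Wnt10a, Wnt4, Nkd1 and Wnt5a.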

How the results depend on the processing

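Of 1154 values of named genes under alternative settings, 1111 kept their direction and their side of the threshold, 41 kept their direction and lost the call, and 2 reversed. Those 2 were Fzd7 in the averaged comparison at its probe at base 2376 (-0.48) and Nkd1 in lacZ day 3 minus day 0 at its second probe (-0.14, adjusted p = 0.926, limma). Of 340 counts of called members, 316 stayed within 1.5 times. The others outside single left-out arrays were as follows. Within the slide of days 7 and 10, 7 members were lower in the average. Normexp gave 4 lower at day 5 and 9 members that depended on the day. The deposited table gave 7 lower at day 14, a change with 5 lower, and 9 that depended on the day. Scaling on probes above background on all arrays gave 13 higher and 8 lower at day 14. Keeping only such probes left 27 members, with 6 higher at day 7, 2 with an increase over time, 6 lower at day 3 and 6 at day 14 with lacZ against day 0, 4 lower with MGT at day 14 against day 0, and 9 that depended on the day. Fitting only the arrays compared gave 3 lower at day 10, 4 higher and 3 lower at day 14, and 5 decreases over time. From day 3 to day 10 there were 3 decreases. With single arrays left out, 6 to 12 members were lower at day 14 and 8 to 16 depended on the day, the lowest counts without the second MGT array of day 14 (6) and without the first lacZ or the second MGT array of day 3 (8 each). Without the second lacZ array of day 3 and the second MGT array of day 14, 9 depended on the day. The direction of the split of calls over all genes at day 14 also moved: 38.5% were higher here, 53.1% with the scaling on probes above background, 51.5% with quantile normalization, 49.5% in the deposited table and 26.7% with normexp, which shifted the median of all genes from -0.09 to -0.24. The cause of these shifts was not tested. Same-numbered arrays showed little tendency to deviate together (correlation -0.09 to 0.16 over 55 pairs of groups, 3 of them over 0.1). With 2 arrays a group this cannot settle whether the numbers pair the samples, and the main fit was unpaired. A fit with the replicate block gave 13 higher and 12 lower in the average and 12 that depended on the day. Slide as a random block could not be fitted because groups are nested in slides. With 2 arrays a group the number of arrays limits the precision, and for Wnt7a, Tcf7, Fzd10 and Wnt9b the signal over background does.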
